A study of Homo sapiens with 12 samples.

Results

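The comparison described here set IOSE80 cells kept for 28 days with E2, the usual short name of estradiol, against the same cells kept for 28 days with 0.1% DMSO. IOSE80 is a human line of immortalised, non-cancerous ovarian epithelial cells. The comparison holds 5 of the 11 libraries analysed, 2 of E2 and 3 of DMSO, and 11810 of the 30574 loci listed per library. A locus was kept where at least 2 of the 5 libraries had 1 FPKM or more (FPKM counts fragments per kilobase of transcript, scaled to the mapped fragments of the library). The other 6 libraries came from cells kept for 28 days with bisphenol A (BPA), a plastics monomer with weak oestrogenic activity, 3 at 0.25 nM and 3 at 2500 nM. The labels name 12 samples, and the E2 sample with replicate number 3 was not analysed here. No source used here gives the E2 dose, and the E2 labels name no solvent. All cells are of 1 line, and the labels do not tell whether replicates were grown apart, so a p-value reflects the spread among these libraries, possibly technical spread alone. In RNA from whole cultures, fewer cells of a kind and less RNA per cell cannot be told apart.

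Estradiol enters cells and binds the nuclear receptors ESR1 and ESR2, which then act at oestrogen response elements in DNA or through partner factors such as AP-1 and SP1. A membrane receptor, GPER1, passes a faster signal to kinases. In the ovary the hormone is made by granulosa cells, and the surface epithelium lies close to that source. Textbook responses in cells rich in ESR1 include induction of PGR, GREB1, TFF1, MYC and CCND1.

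The 5 libraries were alike in size of signal but not in position among all libraries. FPKM summed to between 206719 and 213474 in the E2 libraries and to between 206774 and 212982 in the DMSO libraries; the number of reads behind these values is unknown. Mitochondrial loci held 13.13% ± 1.23 of the summed FPKM in E2 (SD, n = 2) and 13.91% ± 0.36 in DMSO (SD, n = 3). E2 replicate 2 had the lowest median correlation with the other libraries (Pearson's r across loci 0.977), and it had the highest score on the first principal component, 16.7, next to DMSO replicate 2 at 13.3. On the second component the E2 libraries scored 9.8 and 16.2, and the 3 DMSO libraries scored −13.6, −2.9 and −5.1. Counts of calls and the leading genes are given with and without these libraries. The labelled cell type was checked against 16 matched markers of ovarian surface epithelium, of which 11 stayed under 1 FPKM in all 11 libraries, among them WT1, KRT7, KRT19, MSLN, CDH1 and CDH2. KRT18, a keratin of simple epithelia, was at 23.4, 19.8 and 27.0 FPKM in DMSO and at 23.3 and 23.9 in E2. The summed markers of that list ran from 142.78 to 144.61 FPKM in E2 and from 135.71 to 152.17 in DMSO.

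**Figure D1:**
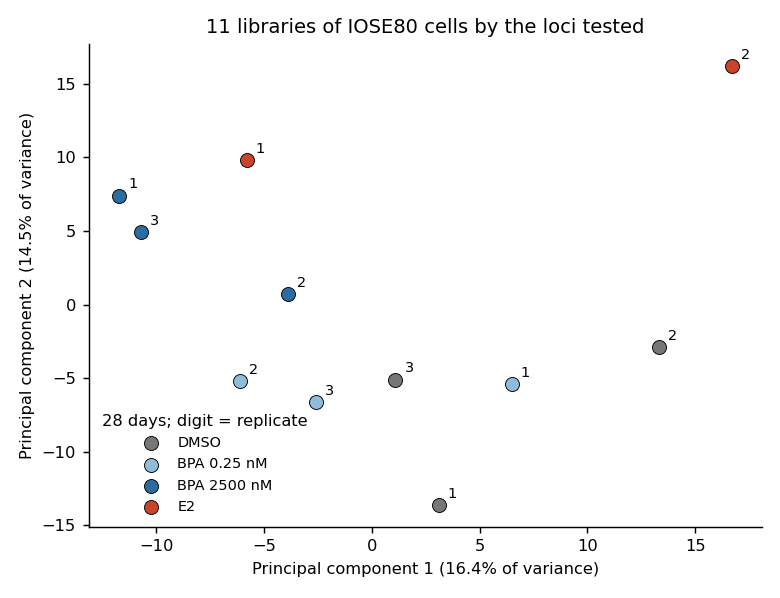
Scores of the 11 libraries on the first and second principal components of log2(FPKM + 1) over the loci tested; each point is a library, coloured by group and numbered by replicate. The E2 libraries hold the highest scores on the second axis (9.8 and 16.2), and E2 replicate 2 and DMSO replicate 2 hold the highest scores on the first (16.7 and 13.3).

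The nuclear oestrogen receptors were close to 0 in these cells. ESR1 reached at most 0.02 FPKM and ESR2 at most 0.04 in any of the 11 libraries, too low to test. GPER1 was at 1.58, 2.02 and 2.96 FPKM in DMSO and at 3.05 and 1.39 in E2, so the groups overlapped. ESRRA, an orphan receptor related to ESR1 that acts on genes of mitochondrial energy metabolism, was at 12.3, 15.4 and 16.9 FPKM in DMSO and at 20.8 and 18.2 in E2. Both E2 values lay above all DMSO values, as at 12.4% of all loci tested. The difference of 0.38 ± 0.12 (SE) on the log2(FPKM + 1) scale was not called by limma (adjusted p = 0.187). The rise was not particular to E2: ESRRA averaged 19.3 FPKM in BPA 0.25 nM, 19.7 in BPA 2500 nM and 19.5 in E2. Of the 32 receptors and coregulators listed, 21 could be tested and none was called, where 0.457% of all loci were called. Their median difference was −0.067 against −0.007 over all loci tested. Left out in turn, E2 replicate 2 moved that median to 0.009. The coactivator NCOA1 differed by 0.15 (adjusted p = 0.327).

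Textbook target genes of ESR1 were either too low to test or not called. No locus carried the name PGR or TFF1. GREB1, a coactivator induced by oestrogen in breast cells, stayed at or under 0.11 FPKM in all libraries, and IGFBP4, a binding protein of insulin-like growth factors, at or under 0.27. MYC, a growth regulator, was at 2.95, 3.31 and 1.76 FPKM in DMSO and at 4.26 and 3.56 in E2. All E2 values of MYC lay above those of DMSO, as at 12.4% of all loci tested, with a difference of 0.44 ± 0.18 that was not called (adjusted p = 0.286). MYC averaged 3.23 FPKM in BPA 0.25 nM, 4.08 in BPA 2500 nM and 3.91 in E2. CCND1, the cyclin that drives entry into the cell cycle, was at 32.7, 34.2 and 32.0 FPKM in DMSO and at 33.8 and 38.1 in E2, and the groups overlapped. The growth-response factor EGR1 overlapped too (0.15, adjusted p = 0.438). FOS stayed between 0.85 and 1.45 FPKM in these 5 libraries. NRIP1, a corepressor, was at 0.43, 0.47 and 0.45 FPKM in DMSO and at 0.40 and 0.71 in E2. Over the 25 classical targets that could be tested of 40 listed, none was called. Over all loci 0.457% were called, so the lack of a call among so few genes says little. The median difference of these targets was 0.027, which ran from −0.05 to 0.036 when libraries were left out or rescaled. CELSR2 and STC2, which had the smallest p of the list, were lower in both E2 libraries, by 0.23 and 0.42, and were not called (adjusted p = 0.0735 and 0.0889). STC2, a secreted glycoprotein, was at 3.28, 2.93 and 2.87 FPKM in DMSO and at 2.19 and 1.83 in E2. STC2 averaged 2.36 FPKM in BPA 0.25 nM, 1.97 in BPA 2500 nM and 2.01 in E2, and CELSR2 averaged 3.43, 3.08 and 2.74. Lower E2 libraries without overlap were seen at 16.3% of all loci tested.

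Genes listed under oestrogen synthesis and metabolism were mostly lower in E2, without a called member (0.457% of all loci were called). Of 34 listed, 16 could be tested. Of these, 13 were lower and 3 higher in E2, where 48.2% of all loci were higher. The list median was −0.132, and −0.071 without E2 replicate 1. Against the same DMSO libraries the median was 0.016 in BPA 0.25 nM and −0.115 in BPA 2500 nM. HSD17B8, which oxidises estradiol to estrone and also serves mitochondrial fatty acid synthesis, was at 4.26, 4.68 and 4.33 FPKM in DMSO and at 2.54 and 2.67 in E2. Every E2 value was below every DMSO value, as at 16.3% of all loci tested, and the difference of −0.59 ± 0.11 just missed the threshold (adjusted p = 0.0523). HSD17B14, another oxidising 17-beta-hydroxysteroid dehydrogenase, differed by −0.44 (adjusted p = 0.0731), and HSD3B7, an enzyme of bile acid synthesis in the same family as the steroidogenic HSD3B enzymes, by −0.26 (adjusted p = 0.0758). HSD17B4, a peroxisomal member, lay at 6.37, 6.29 and 6.24 FPKM in DMSO and at 6.39 and 6.59 in E2. HSD17B10 lay between 74.5 and 81.0 FPKM in DMSO and at 90.6 and 76.3 in E2, HSD17B12 between 2.42 and 3.08 in DMSO and at 2.41 and 3.08 in E2. CYP1B1, which hydroxylates estradiol, was at 1.62, 1.95 and 1.64 FPKM in DMSO and at 1.35 and 1.64 in E2. The sulfatase STS stayed under 1 FPKM in all libraries. CTSD, from the oestrogen panel and not one of these enzymes, shares a locus with another coding gene in these files and cannot be read alone. It was at 8.48, 9.86 and 10.9 FPKM in DMSO and at 10.8 and 9.07 in E2.

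Across all 11810 loci, E2 differed from DMSO at 54 loci (0.457%), 21 higher (0.178%) and 33 lower (0.279%), by limma with Benjamini-Hochberg adjusted p under 0.05. At an unadjusted p under 0.05 the count was 1871, 753 higher and 1118 lower. The changes were small: the median size was 0.37 on the log2(FPKM + 1) scale among the higher loci and 0.458 among the lower, and 4 loci passed a size of 1. Of the higher loci, 17 named 1 coding gene, among them the locus opposite YWHAE, and 4 none. Of the lower, it was 29 and 4. The called higher loci had a median of 16.5 FPKM in DMSO and the called lower loci 7.22, against 5.64 for all loci tested. Of the 54, 2 higher loci (RNVU1-7 and a locus opposite YWHAE) passed the filter only through the E2 libraries and 2 lower loci (TCTE3 and C16orf86) only through DMSO, so they had to differ. In all 54 the E2 and DMSO libraries did not overlap, which also held for 12.4% (higher) and 16.3% (lower) of all loci tested. In 6 of the 21 higher and 17 of the 33 lower loci both E2 values lay outside the range of all 9 other libraries, against 2.92% and 3.45% of all loci. Most calls were close to the threshold, with an adjusted p of at least 0.03 in 32 of 54. The count depended on every library. It was 9, 16 and 13 without DMSO replicate 1, 2 or 3, 20, 22 and 38 without BPA 0.25 nM replicate 1, 2 or 3, and 26, 7 and 24 without BPA 2500 nM replicate 1, 2 or 3. Without E2 replicate 1 it was 227 and without E2 replicate 2 it was 35, where the lone E2 library is assumed to vary like the other groups. With E2 replicate 2 and DMSO replicate 2 both left out the count was 33. When the spread was taken from the 5 libraries alone the count was 2, and neither was among the 54. Over the 11 fits that leave out 1 library, 6 loci were called each time: PAQR4, LBR, MT-TF, CCDC69, ODC1 and the locus opposite YWHAE, which had passed the filter only through E2. The other 48 lost their call in at least 1 of these fits, with an adjusted p of at most 0.16, and 31 were called in fewer than 3 of them. Of the 54, 9 were called without DMSO replicate 2 and 14 without E2 replicate 2. All 54 kept their direction in every fit that tested them. For fits without 1 library the lack of overlap fixed this in advance, so it is no support.

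**Figure D2:**
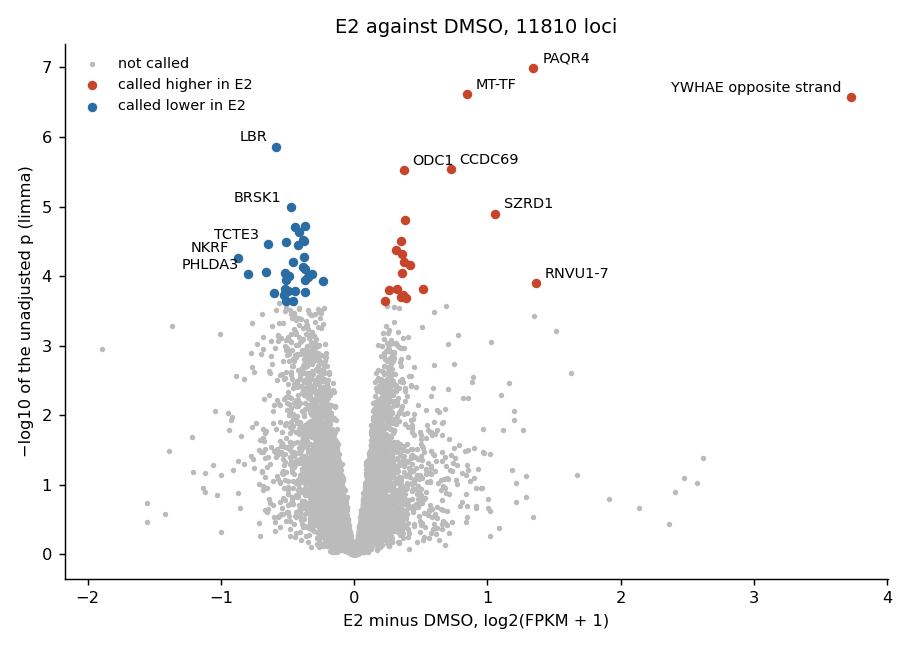
Each point is a locus; the horizontal axis is the difference E2 minus DMSO in log2(FPKM + 1), the vertical axis −log10 of the unadjusted limma p. Red points are the 21 loci called higher and blue points the 33 called lower; the point at 3.73 is the locus opposite YWHAE, tested only because of its E2 values.

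PAQR4 was the coding gene with the largest called rise. It encodes a membrane protein of the progestin and adipoQ receptor family. It lay at 5.63, 4.34 and 5.35 FPKM in DMSO, at 14.6 and 14.3 in E2, at 5.35, 5.59 and 5.99 in BPA 0.25 nM and at 5.81, 5.12 and 5.68 in BPA 2500 nM. Both E2 libraries stood far above the other 9, which overlapped each other. The difference from DMSO was 1.34 ± 0.09 (adjusted p = 0.00106), and over all settings it ran from 1.25 to 1.49. The PAQR4 locus (GRCh38 chr16:2969245-2973489, plus strand) lies whole within the locus of PKMYT1 on the other strand, a kinase that inhibits entry into mitosis. PKMYT1 was at 7.03, 5.63 and 6.10 FPKM in DMSO and at 7.15 and 5.66 in E2, and the groups overlapped. No source used here says whether the counting used strand.

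SZRD1 and CCDC69 were named because earlier results of these same data had shown them higher in every treatment. Their rise in E2 is therefore no independent support. SZRD1, a small protein with an RNA-binding motif, was at 14.1, 18.8 and 13.3 FPKM in DMSO and at 34.8 and 30.7 in E2, a difference of 1.05 ± 0.13 (adjusted p = 0.0186). Without DMSO replicate 1 or BPA 2500 nM replicate 2 its adjusted p was 0.0651 and 0.0556. CCDC69, which regulates the central spindle in mitosis, was near the filter, at 1.04, 0.95 and 0.81 FPKM in DMSO and at 2.23 and 2.15 in E2 (0.72 ± 0.07, adjusted p = 0.00589). Its locus shares 11944 bases with GM2A on the other strand, which was at 9.6, 9.46 and 9.31 FPKM in DMSO and at 8.32 and 9.12 in E2. In the BPA groups, SZRD1 averaged 31.5 FPKM at 0.25 nM and 31.9 at 2500 nM, and CCDC69 averaged 2.24 and 2.09. The differences of E2 from 0.25 nM and from 2500 nM were 0.06 ± 0.13 and 0.04 ± 0.13 for SZRD1 and −0.02 ± 0.07 and 0.05 ± 0.07 for CCDC69 (± SE), and none was called (adjusted p = 0.875 and 0.932, then 0.918 and 0.834). MRPL49, a mitochondrial ribosomal protein, was higher by 1.63 and not called (adjusted p = 0.0921). It lay at 6.81, 9.96 and 7.12 FPKM in DMSO and at 29.1 and 24.0 in E2, and its BPA 0.25 nM libraries were spread from 7.99 to 28.6.

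A called locus opposite YWHAE carries the name of that coding gene and so came under the rule for named genes. MT-TF, MT-TV and RNVU1-7 hold no coding gene, fall outside the rule and were chosen after their values were seen. A locus of 262 bases (GRCh38 chr17:1344629-1344890, plus strand) was listed at 0 in all 9 DMSO and BPA libraries and at 7.41 and 19.8 FPKM in E2. It was tested only because of its E2 values, so its call is a description and no support. It lies inside a UTR exon of YWHAE, which is read from the minus strand and encodes a 14-3-3 adaptor protein. YWHAE itself was at 129.77, 145.95 and 129.0 FPKM in DMSO and at 130.97 and 121.55 in E2, and the groups overlapped. MT-TF, the mitochondrial tRNA for phenylalanine, was at 28.98, 31.08 and 33.14 FPKM in DMSO and at 57.6 and 55.5 in E2, a rise of 0.85 ± 0.06 (adjusted p = 0.00106). MT-TV, the mitochondrial tRNA for valine, rose by 0.35 (adjusted p = 0.0464). Its locus shares 69 bases with one named MT-CO1 on the other strand, at 777.79, 899.96 and 830.25 FPKM in DMSO and at 678.81 and 581.86 in E2. RNVU1-7, a variant U1 small nuclear RNA, was at 0.14, 0.53 and 0.41 FPKM in DMSO and at 3.0 and 2.02 in E2. It also passed the filter only through E2, and its call (1.36 ± 0.22, adjusted p = 0.0395) was lost in 9 of the 11 fits without 1 library.

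**Figure D3:**
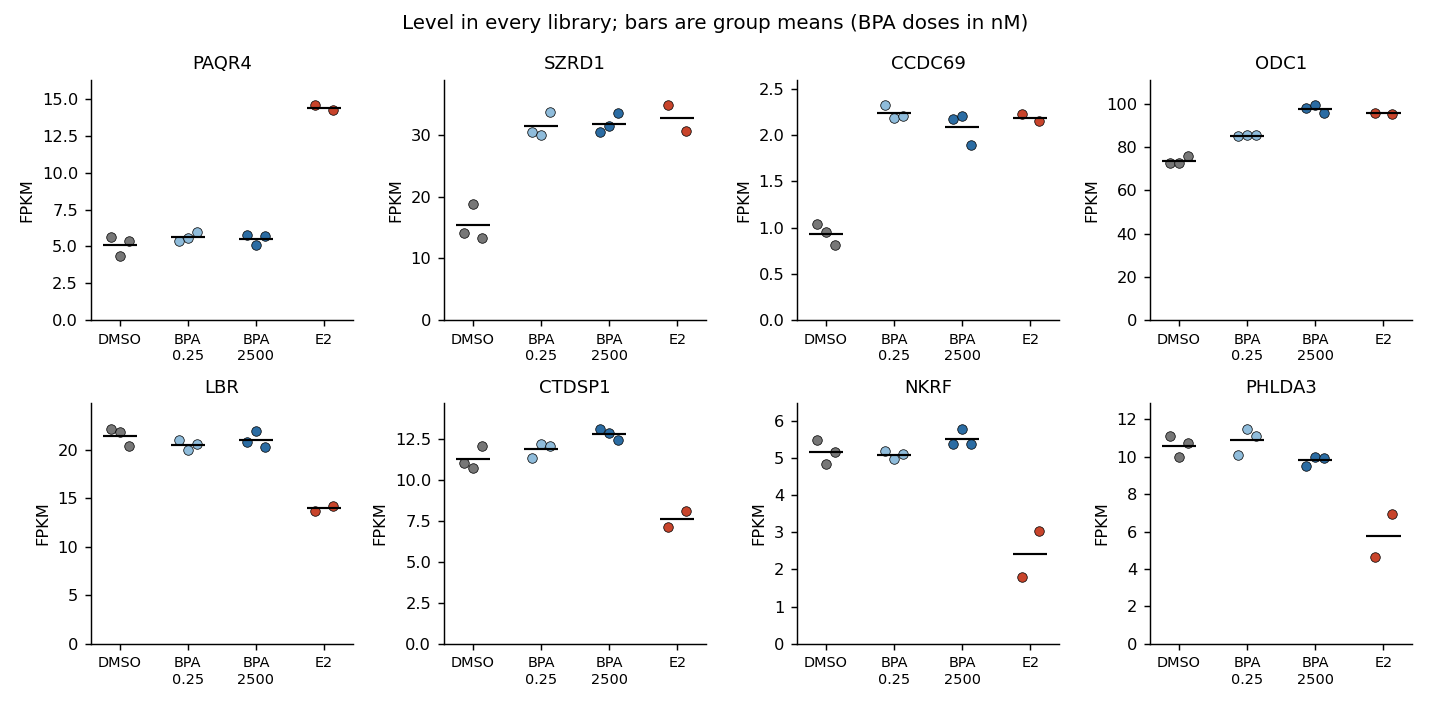
FPKM in each of the 11 libraries for 8 genes; points are libraries, bars are group means, and each axis starts at 0. PAQR4 is higher and LBR, CTDSP1, NKRF and PHLDA3 are lower in both E2 libraries than in the other 9, while SZRD1, CCDC69 and ODC1 are also higher in both BPA groups than in DMSO.

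The clearest group among the higher genes was nucleolar ribosome biogenesis. Of 45 listed factors all 45 were tested, 4 were called higher and none lower, against 0.178% and 0.279% of all loci; 43 were higher in E2, and the median difference was 0.199 against −0.007 over all loci. In 37 of 45 every E2 value lay above every DMSO value, against 12.4% of all loci. The shift was not particular to E2: against the same DMSO libraries the list median was 0.102 in BPA 0.25 nM and 0.185 in BPA 2500 nM. The list was chosen with earlier results of these data known, so its direction is not independent evidence. DDX21, an RNA helicase that works on ribosomal RNA and on transcription by RNA polymerase I, was at 66.6, 70.1 and 67.7 FPKM in DMSO and at 84.9 and 92.0 in E2 (0.37 ± 0.05, adjusted p = 0.0312). NOP16, a large-subunit assembly factor, was at 13.9, 13.7 and 15.3 FPKM in DMSO and at 19.8 and 18.9 in E2 (0.42 ± 0.06, adjusted p = 0.0327). WDR43, a part of the small-subunit processome, was at 22.97, 22.79 and 21.99 FPKM in DMSO and at 28.0 and 30.1 in E2 (0.35 ± 0.05, adjusted p = 0.0232). EBNA1BP2, needed to mature the large-subunit RNA, rose from 41.6 ± 0.58 (SD) to 51.9 ± 2.04 FPKM (adjusted p = 0.0257). WDR3, another processome part outside the list, rose by 0.39 (adjusted p = 0.047), with an adjusted p of 0.149 without E2 replicate 2. The median of the list stayed between 0.187 and 0.23 when E2 or DMSO libraries were left out or the libraries were rescaled. As most members did not overlap, leaving out libraries could not turn its sign. Each of the 4 calls was lost when DMSO replicate 1 was left out, with an adjusted p of 0.108 for DDX21 and NOP16, 0.0779 for WDR43 and 0.0959 for EBNA1BP2. The median over the 19 small nucleolar RNA host genes and related noncoding RNAs tested was 0.127, with no call, and 0.078 without E2 replicate 2. In BPA 0.25 nM and BPA 2500 nM it was 0.097 and 0.114.

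ODC1 and ADI1, from the linked polyamine and methionine cycles, rose too. ODC1, the rate-limiting enzyme of polyamine synthesis and a known MYC target, was at 72.9, 72.8 and 75.8 FPKM in DMSO and at 95.8 and 95.6 in E2 (0.37 ± 0.04, adjusted p = 0.00589). ADI1, a dioxygenase of methionine salvage, rose from 15.9 ± 0.55 to 20.1 ± 0.86 FPKM (adjusted p = 0.0435). They were the called members among 30 of that list tested (0.178% of all loci were called higher), whose median was 0.046. Other called genes belong to signalling. ID2, which blocks differentiation factors of the helix-loop-helix class and is a target of BMP signals, rose from 36.5 ± 0.92 to 47.8 ± 0.84 FPKM (adjusted p = 0.0205). AMOTL2, an angiomotin that restrains YAP and is also induced by it, rose from 4.50 ± 0.14 to 6.88 ± 0.18 FPKM (adjusted p = 0.0435). SPRY2, a feedback inhibitor of receptor tyrosine kinases, rose from 24.0 ± 0.65 to 31.0 ± 0.87 FPKM (adjusted p = 0.0282). PLK2, a polo-like kinase induced by p53 and by growth factors, rose from 6.51 ± 0.32 to 8.62 ± 0.17 FPKM (adjusted p = 0.0346). Each of these was the only call in its list except PLK2, whose list of p53 targets also held a called lower gene, PHLDA3. Without E2 replicate 2 the adjusted p was 0.0413 for ID2 and lay between 0.0612 and 0.117 for ADI1, AMOTL2, SPRY2 and PLK2. Without DMSO replicate 2 it was 0.0531 for ID2 and lay between 0.0614 and 0.096 for the other 4.

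LBR had the smallest p among the lower genes. It encodes the lamin B receptor, an inner nuclear membrane protein that tethers heterochromatin and also acts as a sterol reductase. It was at 22.1, 21.9 and 20.4 FPKM in DMSO, at 13.7 and 14.2 in E2, at 21.1, 20.0 and 20.6 in BPA 0.25 nM and at 20.78, 21.95 and 20.32 in BPA 2500 nM. Both E2 libraries were below the other 9, and the fall from DMSO was −0.58 ± 0.05 (adjusted p = 0.00404), between −0.62 and −0.56 over all settings. NUP43, a nucleoporin of the Y complex, fell from 14.6 ± 1.6 to 9.92 ± 0.03 FPKM (adjusted p = 0.0435). NUP43 had an adjusted p of 0.131 without E2 replicate 2 and 0.096 without DMSO replicate 2. These 2 were the calls among 37 nuclear pore and lamina genes tested (0.279% of all loci were called lower). The median difference of that list was 0.091, on the other side of 0, and was 0.145 without E2 replicate 1 and 0.049 without E2 replicate 2.

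CTDSP1, NKRF and PHLDA3 were lower in E2 than in every other library. CTDSP1, a phosphatase that helps REST silence neuronal genes, was at 10.99, 10.72 and 12.04 FPKM in DMSO and at 7.09 and 8.11 in E2 (−0.51 ± 0.07, adjusted p = 0.0232). NKRF, a repressor at NF-kB sites, was at 5.50, 4.83 and 5.16 FPKM in DMSO and at 1.80 and 3.03 in E2 (−0.87 ± 0.13, adjusted p = 0.0291). PHLDA3, a p53 target that restrains AKT, was at 11.1, 9.97 and 10.7 FPKM in DMSO and at 4.62 and 6.93 in E2 (−0.80 ± 0.12, adjusted p = 0.0346). The E2 libraries of NKRF and PHLDA3 lay far from each other, replicate 1 being the lower in both. Of the 11 fits without 1 library, CTDSP1 was called in 7, NKRF in 3 and PHLDA3 in 2. Without DMSO replicate 1 their adjusted p was 0.0779, 0.103 and 0.112. NKRF shares 2747 bases with UBE2A on the other strand, which was at 7.04, 9.21 and 8.82 FPKM in DMSO and at 6.73 and 7.84 in E2. NKRF was the call among 16 NF-kB and cytokine genes tested (0.279% of all loci were called lower), whose median was −0.11, and −0.049 without E2 replicate 2.

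The other called lower genes were spread over cell surface, signalling and metabolism. RRAS, a RAS-family GTPase of integrin signalling, fell from 35.2 ± 2.2 to 24.3 ± 3.0 FPKM (adjusted p = 0.0346). CCR10, a chemokine receptor, fell from 8.01 ± 0.29 to 5.28 ± 0.11 FPKM (adjusted p = 0.0435), and its locus overlaps CNTNAP1 on the other strand, which was at 12.31, 12.50 and 12.69 FPKM in DMSO and at 10.38 and 9.95 in E2. VEGFB, a growth factor of the VEGF family, fell from 10.2 ± 0.4 to 7.18 ± 0.77 FPKM (adjusted p = 0.0499). NOTCH3, a receptor for ligands on neighbouring cells, fell from 6.90, 7.31 and 6.78 FPKM in DMSO to 5.37 and 4.95 in E2 (adjusted p = 0.0291). TXNIP, an arrestin that binds thioredoxin and limits glucose uptake, fell from 9.45 ± 0.59 to 6.41 ± 0.04 FPKM (adjusted p = 0.0435). SCD, which desaturates fatty acids, was at 192.0, 196.1 and 193.6 FPKM in DMSO and at 163.3 and 166.6 in E2, the smallest called fall (−0.23 ± 0.04, adjusted p = 0.0377). GBP2, an interferon-induced GTPase, fell from 5.93 ± 0.04 to 4.56 ± 0.04 FPKM (adjusted p = 0.0346). PBXIP1, which is reported to interact with oestrogen receptors, fell from 8.59, 7.55 and 7.62 FPKM in DMSO to 5.71 and 4.84 in E2 (adjusted p = 0.0374). TSPYL2, TCTE3 and C16orf86 fell by 0.53, 0.64 and 0.51, the last pair among loci that passed the filter only through DMSO. Without E2 replicate 2 the adjusted p of RRAS, CCR10, VEGFB, NOTCH3, TXNIP, SCD, GBP2 and PBXIP1 lay between 0.0816 and 0.158. Without DMSO replicate 2 it lay between 0.0531 and 0.1, so all 8 lost their call either way. Gene Ontology terms, picked after the calls were seen and not tested, placed 9 of the 29 lower and 2 of the 17 higher coding genes at the plasma membrane (18.2% of all single-gene loci), and 5 of the 17 higher and 4 of the 29 lower genes in the nucleolus (6.7%). The 17 include the locus opposite YWHAE, which is on the other strand from that gene.

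**Figure D4:**
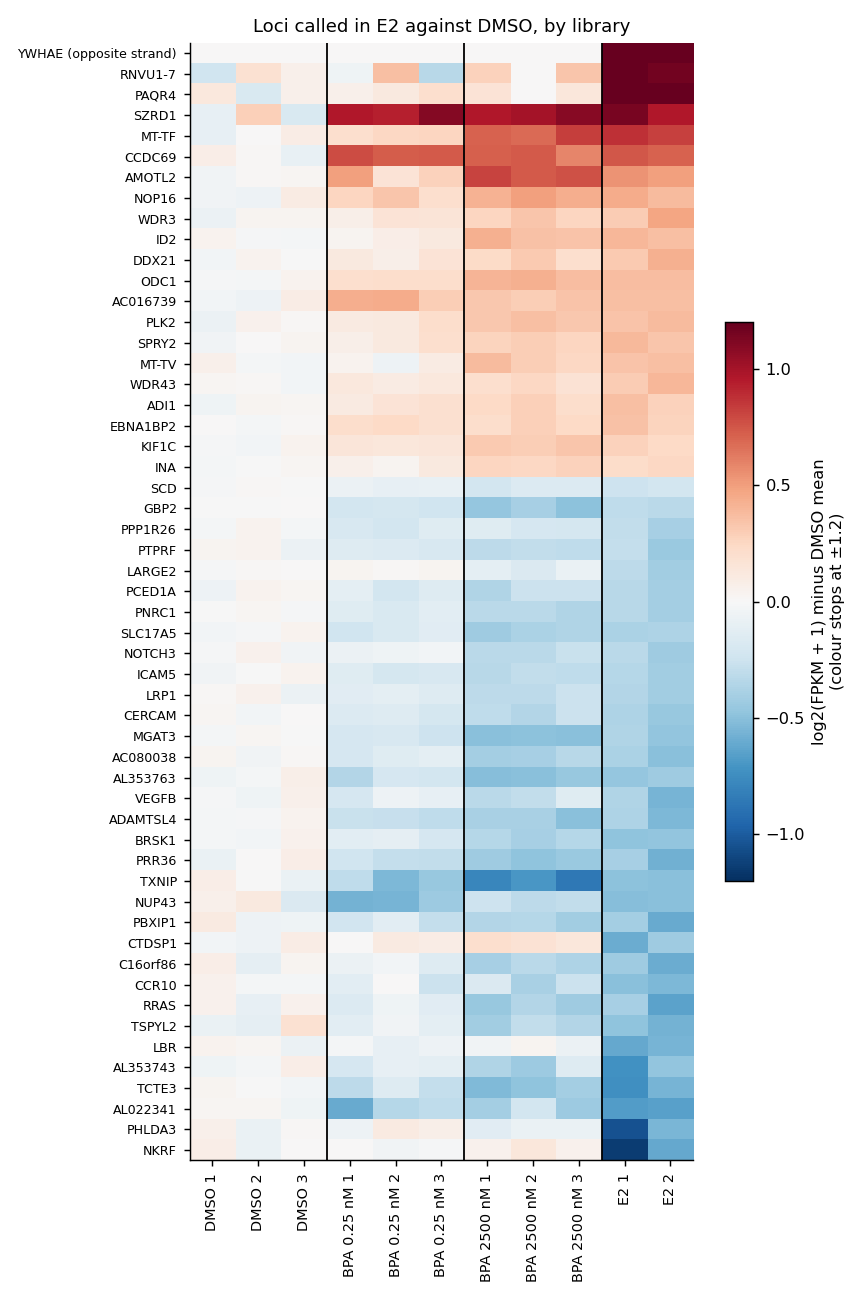
Each row is 1 of the 54 called loci and each column 1 of the 11 libraries; colour gives log2(FPKM + 1) minus the mean of the DMSO libraries, red higher and blue lower, with the scale stopped at 1.2 either way. PAQR4, LBR, CTDSP1, NKRF, PHLDA3 and the locus opposite YWHAE stand out in the E2 columns, and SZRD1 and CCDC69 are red in all treated columns.

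Several wider groups shifted by small amounts with few or no calls. Among 43 DNA replication genes the median difference was 0.099 and 32 were higher; MCM10, a replication initiation factor, was at 11.4, 11.2 and 11.1 FPKM in DMSO and at 13.2 and 12.7 in E2 (adjusted p = 0.143), and CDC45, a part of the replicative helicase, differed by 0.21 (adjusted p = 0.143). Among 40 mitosis genes the median was 0.101 and 36 were higher; without E2 replicate 2 it was 0.09 with 25 higher, and without E2 replicate 1 it was 0.162. KIF4A, a chromosome-bound kinesin, was at 21.8, 22.4 and 23.1 FPKM in DMSO and at 25.2 and 25.8 in E2 (adjusted p = 0.0889). Among 34 heat shock and chaperone genes the median was 0.111; CCT3 and CCT2, subunits of the TRiC folding chamber, differed by 0.27 and 0.18 (adjusted p = 0.0758 and 0.1). HSP90AB1, the constitutive cytosolic HSP90, was at 1011, 978 and 1022 FPKM in DMSO and at 1103 and 1132 in E2, and was not called (adjusted p = 0.103). None of these 3 lists held a call, where 0.457% of all loci were called. Against DMSO, their medians in BPA 0.25 nM and BPA 2500 nM were 0.098 and 0.077 for replication. They were 0.014 and 0.031 for mitosis, and 0.07 and 0.093 for heat shock. Cytosolic ribosomal protein genes stood at a median of 0.01 over 79 loci, also with no call, and between −0.032 and 0.044 when libraries were left out.

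Groups on the lower side included glycolysis and hypoxia, interferon response and matrix. Over all loci, 48.2% were higher in E2 and 0.279% were called lower. Of 36 glycolysis and hypoxia genes tested 31 were lower in E2, the median was −0.162, and TXNIP was the one call. BNIP3, a mitophagy receptor, was at 34.0, 32.9 and 30.5 FPKM in DMSO and at 25.9 and 25.8 in E2 (adjusted p = 0.0524). Its relative BNIP3L was at 21.95, 24.50 and 22.03 FPKM in DMSO and at 14.6 and 7.96 in E2, a difference of −1.01 ± 0.20 with widely spaced E2 libraries (adjusted p = 0.0669). Of 26 interferon genes tested 21 were lower, with a median of −0.135 and GBP2 as the call; IFIT1, an RNA-binding antiviral protein, differed by −0.25 (adjusted p = 0.0523). Collagens and matrix genes had a median of −0.135 over 15 tested of 42 listed, most being too low, and proteases and their inhibitors −0.14 over 24 (−0.085 without E2 replicate 2). COL6A2, a chain of type VI collagen, was at 2.93, 3.14 and 3.17 FPKM in DMSO and at 2.49 and 2.26 in E2 (adjusted p = 0.0701). MMP10, stromelysin-2, was at 272.1, 273.5 and 287.2 FPKM in DMSO and at 244.5 and 252.9 in E2 (adjusted p = 0.115). The medians of the nucleolar, replication, mitosis, heat shock, glycolysis, interferon and both matrix lists kept their side of 0 in each of the 7 settings tried for them. In the nucleolar, heat shock, glycolysis, interferon and collagen lists, most members had E2 libraries apart from DMSO (82.2%, 52.9%, 52.8%, 57.7% and 66.7%). For these lists, leaving out libraries could not change the side, so keeping it is no support. Against DMSO, the medians in BPA 0.25 nM and BPA 2500 nM were −0.079 and −0.102 for glycolysis and −0.031 and −0.157 for interferon. They were −0.032 and −0.066 for collagens and matrix, and −0.031 and −0.097 for proteases. Beside these lists, smooth muscle and pericyte markers summed to between 31.07 and 34.37 FPKM in E2 and between 36.25 and 37.96 in DMSO, with MYH11, DES and RGS5 under 1 FPKM throughout and NOTCH3 among the rest. Endothelial markers summed to between 6.59 and 8.89 FPKM in E2 and between 9.47 and 12.01 in DMSO, with CDH5, CLDN5 and ERG under 1 FPKM. The sums of the other cell type lists overlapped. Granulosa markers ran from 10.74 to 12.81 FPKM in E2 and from 12.53 to 14.43 in DMSO, fibroblast markers from 78.56 to 97.66 and from 85.07 to 109.1. Leukocyte and fallopian tube sums overlapped too. Among single loci, 16.3% were lower without overlap. The part of these markers in the results was not tested. Of the 57 lists, 43 held no called member, where 0.457% of all loci were called.

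**Figure D5:**
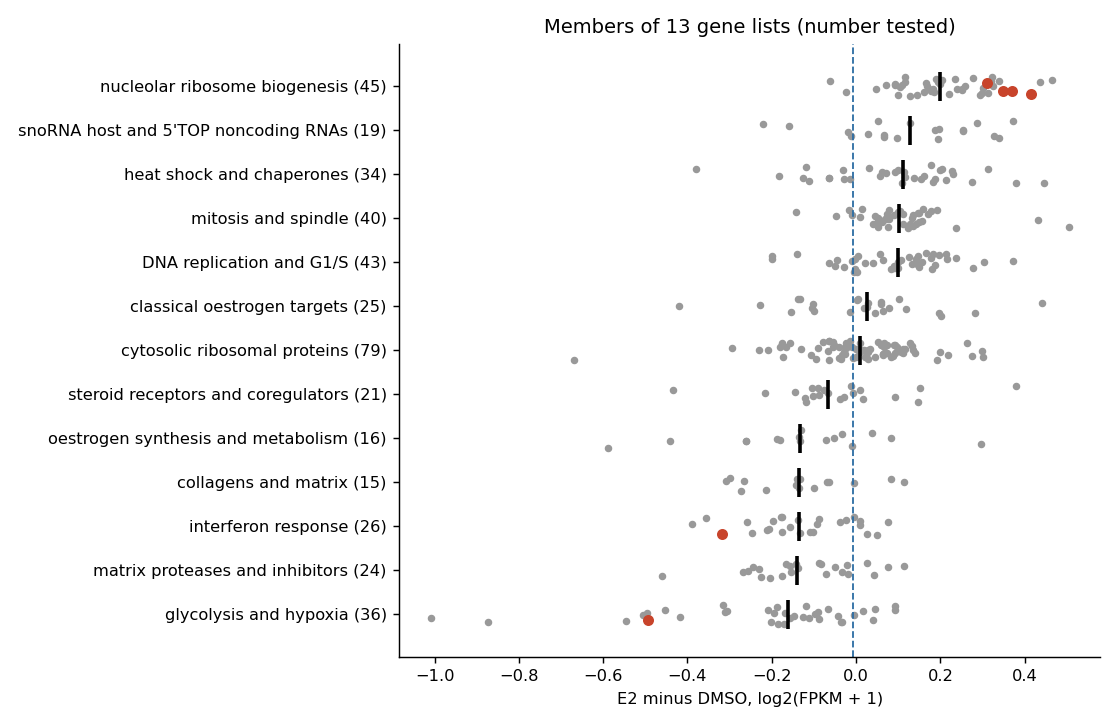
Difference E2 minus DMSO in log2(FPKM + 1) for the tested members of 13 gene lists; each dot is a locus, red dots are called, black bars are list medians and the dashed line is the median of all loci tested (−0.007). The nucleolar list lies furthest right, at 0.199, and glycolysis and hypoxia furthest left, at −0.162.

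E2 was also compared directly with each BPA dose over the same 11810 loci, to test where estradiol differed from BPA. Against BPA 0.25 nM, 6 loci were called (0.0508%), 3 higher and 3 lower (0.0254% each). Against BPA 2500 nM, 5 were called (0.0423%), 3 higher (0.0254%) and 2 lower (0.0169%). Against the mean of the 3 other groups, 6 were called (0.0508%), 3 higher and 3 lower (0.0254% each). At an unadjusted p under 0.05 the counts were 1502, 1080 and 1578. PAQR4 was higher in E2 than in both doses, by 1.22 ± 0.09 (adjusted p = 0.00158) and 1.24 ± 0.09 (adjusted p = 0.00116). LBR was lower than in both, with −0.52 ± 0.05 (adjusted p = 0.0126) and −0.56 ± 0.05 (adjusted p = 0.00632). CTDSP1 was lower than in both, with −0.58 ± 0.07 (adjusted p = 0.0223) and −0.68 ± 0.07 (adjusted p = 0.00685). Without BPA 0.25 nM replicate 1 or 2, LBR against that dose had an adjusted p of 0.0512 and 0.0597. CTDSP1 against BPA 0.25 nM was called in 7 of the 11 fits without 1 library; it was lost without each BPA 0.25 nM replicate and without BPA 2500 nM replicate 2, with an adjusted p of up to 0.141 over all settings. Against BPA 2500 nM, leaving out replicate 2 of that dose brought its adjusted p to 0.0521. The locus opposite YWHAE is counted as higher in each of these comparisons. It was tested only because of its E2 values, so these calls are no support. NKRF was lower than the mean of the other groups, with −0.90 ± 0.11 (adjusted p = 0.0245), and against the single doses it was not called (adjusted p = 0.0775 and 0.052). The call against the mean was kept in 3 of the 11 fits without 1 library, with an adjusted p of up to 0.192 over all settings.

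The remaining differences from BPA were in genes where a BPA dose stood apart as well. KCTD10, an adaptor of CUL3 ubiquitin ligases, was at 6.73 and 7.08 FPKM in E2 and at 7.12, 7.09 and 7.30 in DMSO, while BPA 2500 nM was at 3.25, 3.79 and 3.73. The difference of E2 from BPA 2500 nM was 0.79 ± 0.06 (adjusted p = 0.00116). PCK2, the mitochondrial enzyme that makes phosphoenolpyruvate, was at 12.7 and 11.9 FPKM in E2, at 14.5, 14.6 and 14.8 in DMSO and at 17.9, 17.8 and 18.2 in BPA 0.25 nM (E2 minus BPA 0.25 nM −0.51 ± 0.06, adjusted p = 0.0223). Without any 1 of the BPA 0.25 nM libraries or without E2 replicate 2 the call was lost (adjusted p at most 0.122). MT-TF was higher in E2 than in BPA 0.25 nM by 0.61 ± 0.06 (adjusted p = 0.0126). That call was lost without BPA 0.25 nM replicate 1 or replicate 2 (adjusted p of up to 0.0652 over all settings). Against BPA 2500 nM the difference was 0.11 ± 0.06 (adjusted p = 0.574). The BPA doses and E2 share the DMSO libraries as controls, so their differences from DMSO are not independent. Side by side, the 21 loci called higher in E2 had a median difference from DMSO of 0.37 in E2, 0.142 in BPA 0.25 nM and 0.306 in BPA 2500 nM. For the 33 called lower the BPA medians were −0.154 and −0.317. RRAS, for example, averaged 35.2 FPKM in DMSO, 32.3 in BPA 0.25 nM, 26.2 in BPA 2500 nM and 24.3 in E2. Of the 21 higher loci, 2 were also called in BPA 0.25 nM against DMSO and 16 in BPA 2500 nM. Of the 33 lower loci, the counts were 0 and 20. Over all 11810 loci, BPA 0.25 nM had 2 calls higher and 0 lower, and BPA 2500 nM had 52 and 118. Without E2 replicate 1 the number of calls was 212 against BPA 0.25 nM, 68 against BPA 2500 nM and 165 against the mean of the others; without E2 replicate 2 it was 25, 25 and 27. These counts ran from 2 to 10 without BPA 0.25 nM or BPA 2500 nM libraries in turn, against either dose or the mean.

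Promoters were read for letters that oestrogen receptors and related factors bind, from 250 bases before to 50 bases after the start (RefSeq, GRCh38.p14), on both strands. Of 9285 coding loci tested with one usable gene name, 7497 matched a promoter, among them 16 called higher and 21 called lower. The full oestrogen response element, in which GGTCA and its reverse complement stand 3 bases apart, was in none of these 37 promoters and in 1 of 7497 (0.0133%). One arm of it alone, GGTCA, was in 5 of 16 higher (31.2%), 7 of 21 lower (33.3%) and 33.9% of all; a full element contains this arm on each strand. The AP-1 site TGANTCA was in 1 of 21 lower promoters, that of LBR, and in 3.96% of all. The SP1 box GGGCGG was in 87.5% of the higher, 76.2% of the lower and 73.4% of all. The E-box CACGTG, which MYC and related factors bind, was in 3 of 16 higher promoters (ADI1, WDR43 and EBNA1BP2), in none of the lower, in 13 of 33 matched promoters of the nucleolar list (39.4%) and in 10.6% of all. A match is a description of the letters and not a site in use, and a missing match says only that the letters are not in this window.

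Shown for the genes with the smallest p in each direction, PAQR4 (chr16:2969098-2969397, plus strand) and LBR (chr1:225428772-225429071, minus strand), and for the called nucleolar genes with an E-box, WDR43 (chr2:28894417-28894716, plus strand) and EBNA1BP2 (chr1:43172521-43172820, minus strand), the promoters read as follows, 5′ to 3′. Capitals mark the SP1 box in PAQR4, the AP-1 site and the GGTCA arm in LBR, and the SP1 box and E-box in WDR43 and EBNA1BP2, on either strand.
PAQR4: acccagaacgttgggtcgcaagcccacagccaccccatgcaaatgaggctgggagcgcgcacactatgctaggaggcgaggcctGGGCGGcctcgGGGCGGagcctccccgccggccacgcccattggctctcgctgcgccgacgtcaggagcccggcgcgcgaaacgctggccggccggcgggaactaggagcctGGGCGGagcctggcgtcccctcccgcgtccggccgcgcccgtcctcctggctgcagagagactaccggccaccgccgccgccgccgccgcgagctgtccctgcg
LBR: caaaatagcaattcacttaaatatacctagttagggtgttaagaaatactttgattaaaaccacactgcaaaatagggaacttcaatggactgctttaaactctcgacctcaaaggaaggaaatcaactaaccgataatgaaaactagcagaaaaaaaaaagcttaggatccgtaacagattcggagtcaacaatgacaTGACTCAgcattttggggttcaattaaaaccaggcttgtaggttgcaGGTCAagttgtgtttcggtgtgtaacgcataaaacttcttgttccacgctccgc
WDR43: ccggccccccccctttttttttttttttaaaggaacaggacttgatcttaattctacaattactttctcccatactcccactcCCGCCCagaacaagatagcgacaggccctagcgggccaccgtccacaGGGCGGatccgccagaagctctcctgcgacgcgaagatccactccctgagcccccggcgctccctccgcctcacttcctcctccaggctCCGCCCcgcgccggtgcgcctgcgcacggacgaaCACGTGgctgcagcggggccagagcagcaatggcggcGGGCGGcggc
EBNA1BP2: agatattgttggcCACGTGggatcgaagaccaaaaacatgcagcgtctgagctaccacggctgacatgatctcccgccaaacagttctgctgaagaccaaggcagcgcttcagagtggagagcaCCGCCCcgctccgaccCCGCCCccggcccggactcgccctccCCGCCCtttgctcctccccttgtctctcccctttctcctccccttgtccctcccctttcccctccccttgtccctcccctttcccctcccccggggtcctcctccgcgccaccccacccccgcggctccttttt
PAQR4 holds 3 SP1 boxes and no GGTCA. LBR holds 1 GGTCA arm and 1 AP-1 site and no SP1 box. WDR43 holds 4 SP1 boxes and 1 E-box close to the start, and EBNA1BP2 holds 3 SP1 boxes and 1 E-box near the far end of the window.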

How the data were processed

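RNA of 11 samples was sequenced on an Illumina NovaSeq after Trizol extraction, per the labels' protocols. The authors deposited 1 FPKM value per locus and library, with 2 decimals; read depth is unknown. Per the submitters' processing notes, the tools were HISAT, StringTie, UMI-tools and edgeR, with no versions or order. Those notes name hg19, but the coordinates are those of GRCh38: 74.8% of 14123 Ensembl loci have the same start and end in GENCODE 29. Libraries were grouped by the treatment label.

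The FPKM values were used as deposited, as log2(FPKM + 1), for loci with at least 1 FPKM in at least 2 of the 5 E2 and DMSO libraries. Of the loci tested, 24 passed through the E2 libraries only and 237 through DMSO only. limma 3.58.1 (R 4.3.3, trend and robust settings) fitted 1 mean per group over all 11 libraries with 7 residual degrees of freedom, 2-sided, with Benjamini-Hochberg adjustment over all 11810 loci and a threshold of 0.05. Fold changes on this scale understate those of low genes. An exact permutation test of 2 against 3 libraries cannot reach 0.05. Alternatives covered the pseudocount, the filter, rescaling, limma's settings, the libraries in the fit and the replicate block. On simulated data with the spread of each locus, for E2 against DMSO over 11810 loci, 19.6%, 67.3% and 85% of changes of 0.3, 0.6 and 1 were recovered. Of the simulated calls, 5.6% were false. The simulation set the number of changed loci in advance, with normal spread and no shift of whole libraries. Recovery in the real data may therefore differ.

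Genes were named by rule: the 12 highest and 12 lowest called loci with 1 coding gene and no overlap of libraries; called members and the 4 members with the smallest p of each list described; a panel of oestrogen genes, of which some are not reported here; the 5 smallest p per direction of E2 against BPA; and SZRD1 and CCDC69. Members and the 57 gene lists (1705 genes, 70 without a locus, 262 too low to test) were chosen with earlier results of these data known, and lists are described by counts and medians. 24 called loci overlap a locus on the other strand and are uncertain, since strand use in counting is not given. Figures were drawn with matplotlib 3.10.9.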

Additional observations from a re-analysis of the deposited data

Results flagged for a closer look

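The effect of E2 differed from that of BPA 0.25 nM at 6 loci, by limma's test of the difference itself (adjusted p under 0.05). On the log2(FPKM + 1) scale, E2 minus BPA 0.25 nM was 3.73 for the locus opposite YWHAE, 1.22 for PAQR4, 0.61 for MT-TF, −0.58 for CTDSP1, −0.52 for LBR and −0.51 for PCK2. The effect of E2 differed from that of BPA 2500 nM at 5 loci, with 3.73 for the locus opposite YWHAE, 1.24 for PAQR4, 0.79 for KCTD10, −0.68 for CTDSP1 and −0.56 for LBR. The locus opposite YWHAE was tested only because of its E2 values, so its place in both lists is a description and no support. No group had enough libraries to look for an outlying one.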

How the results depend on the processing

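The 54 called loci kept their direction under every alternative that tested them. As their E2 and DMSO libraries did not overlap, a change of libraries, filter or pseudocount could not have reversed it. Genes given by their levels only were not refitted. Loci called in E2 against DMSO numbered 54 (21 higher, 33 lower). Without a filter on low values there were 33 (22 higher, 11 lower), of which 19 were among the 54. With the spread from the 5 E2 and DMSO libraries only there were 2 (1 higher, 1 lower), and with DMSO replicate 2 and E2 replicate 2 both left out, an alternative chosen after seeing the data, 33 (13 higher, 20 lower), of which 9 were among the 54. Leaving out 1 library at a time gave 7 to 227 (5 to 54 higher, 1 to 173 lower). The same steps gave 2 to 212 for E2 against BPA 0.25 nM, 4 to 68 against BPA 2500 nM and 5 to 165 against the mean of the 3 other groups. Without the filter these counts were 23, 19 and 24, and with both libraries left out 30, 27 and 28. Whether the replicate numbers mark pairs is not known. Among 15 same-numbered pairs the correlation of deviations from the group means ran from −0.129 to 0.177, and DMSO and E2 replicates 1 and 2 had 0.046 and 0.177. With 2 E2 libraries their deviations mirror each other, and each group mean rests on few libraries, so these values cannot decide it. With the replicate block there were 5 calls against DMSO (4 higher, 1 lower), all among the 54 (PAQR4, LBR, MT-TF, CCDC69 and the locus opposite YWHAE), and 3 against BPA 0.25 nM. The other settings (pseudocount 0.1, filters over 11 libraries or on the mean, rescaling, limma without trend and robust) gave 46 to 61 calls against DMSO. Of 2451 values of named genes under alternatives, 1792 kept their side of the threshold, 630 lost it and 29 gained it. With 2 E2 libraries and no read counts, changes of 0.3 were recovered in 19.6% of simulated cases, and the causes of the shifts were not tested.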

Other observations

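Outside the rule for named genes, and chosen after their values were seen, called lower genes included BRSK1, a kinase of neuronal polarity (3.18, 3.16 and 3.40 FPKM in DMSO, 2.04 and 2.06 in E2), LRP1, an endocytic receptor (3.81, 3.94 and 3.53, then 2.73 and 2.56), and PNRC1, a nuclear receptor coactivator (8.86, 9.05 and 8.78, then 6.84 and 6.46). INA, a neuronal intermediate filament, was called higher (76.5, 77.6 and 79.2, then 90.6 and 92.5). The LRP1 locus shares 3647 bases with STAT6 on the other strand, which was lower in E2 too (18.37, 18.39 and 18.15, then 16.84 and 15.99).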
